A study of Rattus norvegicus with 20 samples.

Results

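The lysosome was followed through 36 genes of the rat kidney, chosen as textbook lysosomal enzymes and membrane proteins together with a transcription factor that controls them. They comprised 11 proteases, 11 glycan-degrading enzymes (glycosidases and a sulfamidase), 6 lipid hydrolases and soluble cofactors, 7 membrane proteins and Tfeb. Genes were taken by symbol from either deposited table and carried to the other by Ensembl identifier. All 36, of 32907 genes listed in either table, were found in both tables and passed the filter on low values in every comparison. Sgsh, the heparan sulfate sulfamidase, carries a clone-based name in the tacrolimus table and was matched by identifier alone.

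Kidney RNA came from male wild-type Wistar rats aged 10 to 12 weeks that carried an osmotic minipump under the skin for 28 days. The pumps delivered 1 of 2 calcineurin inhibitors, immunosuppressants used after transplantation, or the solvent of that drug. The cyclosporine A group and its saline vehicle held 4 kidney samples each, called kidneys here. The tacrolimus group (target trough 3.5 ng/ml) and its vehicle, a mixture of 25% DMSO with 75% polyethylene glycol called DMSO/PEG here, held 6 each. The labels number the samples of a group without saying that each came from its own rat, so the p-values measure the spread between these samples, which may be partly technical. RNA was taken from the entire kidney, so each value is an average over all its cell types. The study set the kidney toxicity of the 2 drugs side by side, and no genetic change was introduced in any group.

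Lysosomes are acidic organelles in which hydrolases break down proteins, glycans and lipids delivered by endocytosis and autophagy, and membrane proteins export the products. In the kidney they are prominent in the proximal tubule, which takes up filtered protein. TFEB is a transcription factor that is known to bind E-box elements in promoters of lysosomal genes and to activate them. It is held in the cytoplasm when phosphorylated by mTORC1 at the lysosomal surface, and calcineurin, activated by calcium released through the lysosomal channel MCOLN1, can dephosphorylate it. This is background on the pathway, and TFEB phosphorylation or location was not measured here.

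Promoters of the lysosomal genes were examined for that element, because Tfeb is known to act through it. RefSeq promoter windows of 300 bases (250 before and 50 after the start, build GRCr8) were found for 32 of the 36 genes, not for Ctsb, Hexa, Psap and Asah1. The 8-base palindrome TCACGTGA occurred in the windows of Lamp1, Mcoln1 and Ctsd, 3 of 32 (9.38%), against 0.777% of all 33469 windows. Its 6-base core CACGTG, which is nested in it, occurred in 9 of 32 (28.1%), against 6.42% of all windows. Both motifs read the same on either strand. The stretches that hold the matches are given 5′ to 3′ on the strand of the gene, with the matches in capitals.
Lamp1, chr16:83075082-83075258, minus strand: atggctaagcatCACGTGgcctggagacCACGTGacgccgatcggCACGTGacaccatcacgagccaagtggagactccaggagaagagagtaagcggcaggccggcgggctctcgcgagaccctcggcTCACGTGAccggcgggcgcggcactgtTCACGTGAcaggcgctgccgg
Mcoln1, chr12:6358224-6358281, plus strand: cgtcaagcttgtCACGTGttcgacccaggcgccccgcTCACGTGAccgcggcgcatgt
Ctsd, chr1:206968812-206968990, minus strand: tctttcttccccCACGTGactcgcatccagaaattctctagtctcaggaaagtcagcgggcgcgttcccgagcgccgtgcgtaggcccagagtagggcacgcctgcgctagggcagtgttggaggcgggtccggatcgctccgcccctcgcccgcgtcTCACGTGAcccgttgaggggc
Lamp1 holds 5 copies of the core, of which 2 lie in the longer palindrome, and Mcoln1 and Ctsd hold 2 copies each, of which 1 does. The other members with the core were Cd63, Ctsf, Gaa, Glb1, Idua and Sgsh. A match describes the letters of the window and does not show that a factor was bound. The windows of Slc17a5, Ctsh and Tfeb hold neither motif, which says nothing of control from elsewhere.

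**Figure D1:**
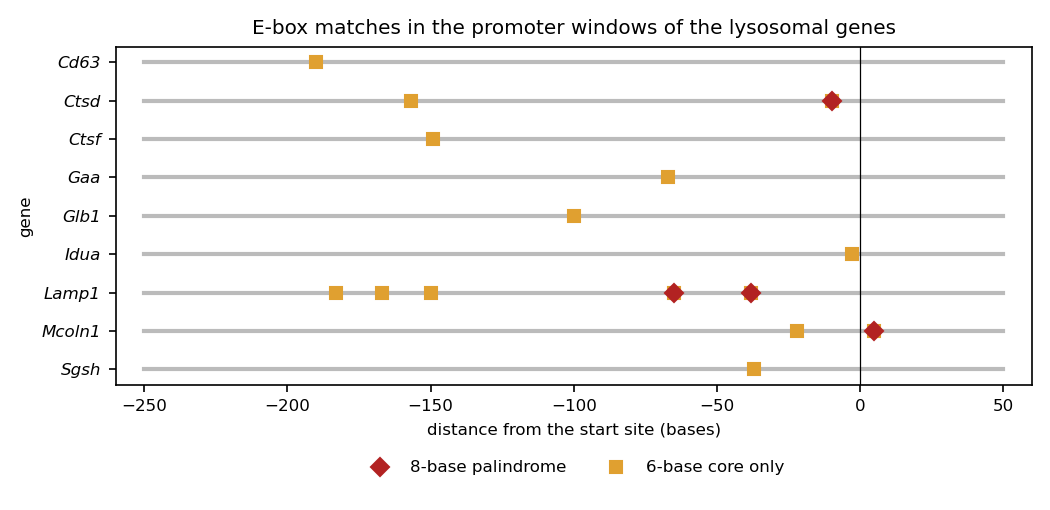
Positions of the 8-base palindrome (diamonds) and of the 6-base core outside it (squares) in the promoter windows of the 9 lysosomal genes that hold the core. The x axis gives the distance from the start site in bases, and each grey line is the window of 1 gene; Lamp1 carries 5 copies, and the matches of the other 8 genes number 1 or 2 each.

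Assigned fragments per library numbered 30468777 to 34308899 for cyclosporine A and saline, and 31670202 to 39358485 for tacrolimus and DMSO/PEG. Mitochondrial genes took 49.7% to 68.6% of them with saline and 80.2% to 90.8% with cyclosporine A, against 10.5% to 13.7% with DMSO/PEG and 10.8% to 15.9% with tacrolimus. Deposited values are FPKM, which divide fragments by gene length and library size. In the cyclosporine A table they are relative to all fragments, so a larger mitochondrial share lowers the value of every nuclear gene. The fragments behind the values were therefore also divided by median-of-ratios size factors, so that the typical gene is equal between libraries; these values are called rescaled FPKM. Both scales are given for cyclosporine A, while the tacrolimus table already follows such factors. Changes are differences of mean log2(FPKM + 1), tested with limma and adjusted by the Benjamini-Hochberg method over all genes tested; a gene is called at an adjusted p under 0.05, and ± after a change is its standard error (SE). The labels number the libraries as replicates, and p-values measure the spread between these libraries.

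On the deposited scale, 35 of the 36 lysosomal genes were called lower with cyclosporine A, and Ctsh, an aminopeptidase, was the exception. This was also true of the transcriptome, since 80.9% of the 13455 genes tested were called lower and 0.193% higher. The median change was -1.35 over the lysosomal genes and -0.89 over all genes, and 29 of the 36 lay below the median gene. The gap varied with the fit. It was narrower with a pseudocount of 0.1 (medians -1.52 and -1.26) and with voom on the recovered fragments (-1.52 and -1.36, 23 of 36 below), and wider with no filter on low values (-1.35 and -0.61, 34 of 36 below). In 30 of the 36 genes no kidney of the cyclosporine A group reached the lowest saline kidney, against 67.9% of all genes tested.

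On the rescaled scale, no lysosomal gene was called with cyclosporine A in either direction, against 0.609% of all genes tested. The median change was -0.18, beside 0.00 over all genes (quartiles -0.16 and 0.15), with 12 genes above 0 and 24 below. Scaled to nuclear fragments instead, the medians were -0.09 and 0.07, and 5 rather than 7 genes had an unadjusted p under 0.05. Ctsh, Gaa, Neu1, Psap, Gusb, Smpd1 and Slc17a5 had an unadjusted p under 0.05, 7 of 36 (19.4%) against 16.2% of all genes. By limma's voom on the recovered fragments, 1 of the 36, Ctsh, was called higher (adjusted p = 0.0472), against 1.02% of all genes. The 95% intervals of the 36 changes reached from -1.16 (Ctss) to 0.94 (Ctsh). Ctsh was higher in every treated kidney than in any saline kidney, a separation that 4.81% of all genes showed in that direction. Gaa, Gusb, Smpd1 and Slc17a5 were lower in every treated kidney, as were 6.11% of all genes.

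With tacrolimus, Slc17a5, the lysosomal exporter of sialic acid, was called higher, and the other 35 lysosomal genes were not called. Of the 15493 genes tested, 0.0194% were called higher (3 genes) and 0.284% lower. The median change was 0.02 over the lysosomal genes and 0.00 over all genes (quartiles -0.07 and 0.06), with 22 above 0 and 14 below. Unadjusted p-values were under 0.05 for Ctsc, Manba and Slc17a5, 3 of 36 (8.33%) against 8.58% of all genes. The 95% intervals of the 35 genes not called reached from -0.51 (Naglu) to 0.50 (Ctsb). Slc17a5 was higher in all 6 treated kidneys than in any vehicle kidney (0.303% of all genes), and Manba was lower in all 6 (0.671% of all genes).

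**Figure D2:**
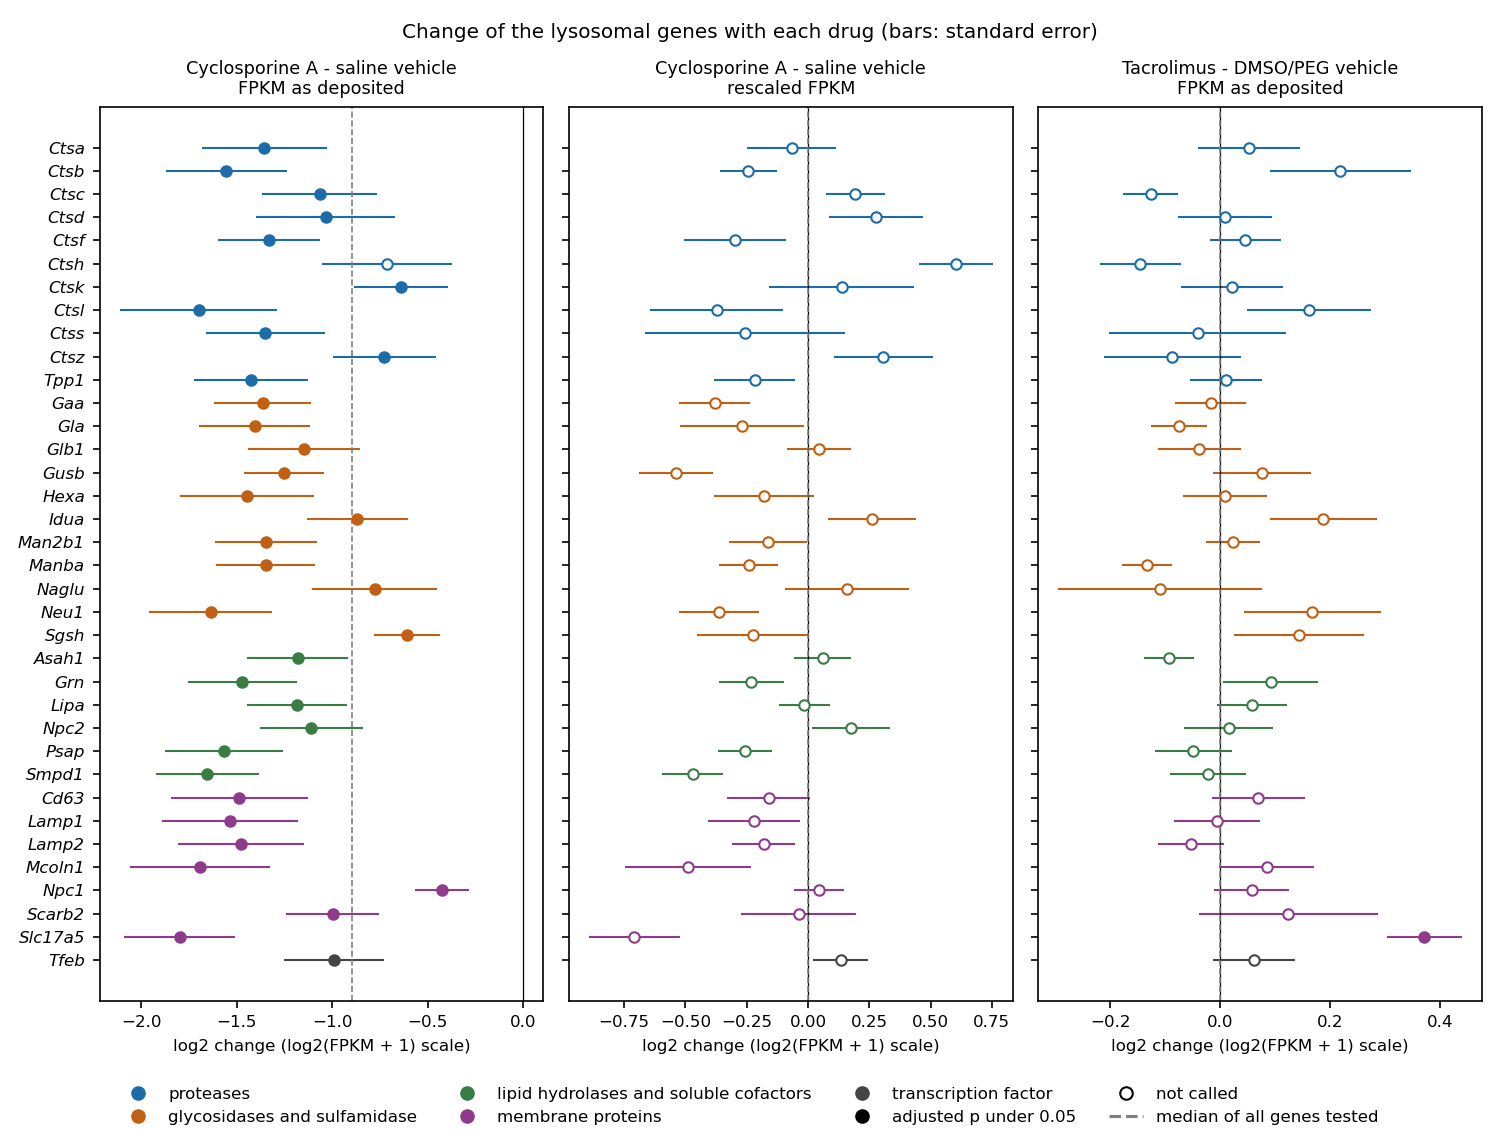
Change of each of the 36 genes with cyclosporine A on the deposited scale (left), with cyclosporine A on the rescaled scale (middle) and with tacrolimus (right), as log2 change with its standard error; each panel has its own x axis. Colours mark the role of the gene, filled points are called at an adjusted p under 0.05, and the dashed line is the median of all genes tested. Filled points number 35 on the left, 0 in the middle and 1 (Slc17a5) on the right.

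Among the membrane proteins, Slc17a5, the sialic acid exporter, differed most between the drugs. Slc17a5 (chr8:85891257-85926450 on the minus strand, positions as deposited; rn6 is the build named in the submitters' processing notes) stood at 17.3, 12.2, 8.59 and 10.3 FPKM in the saline kidneys and 2.50, 4.22, 3.13 and 1.36 FPKM in the cyclosporine A kidneys on the deposited scale. The group means were 12.1 ± 3.78 and 2.80 ± 1.19 FPKM (SD, n = 4 each), a change of -1.80 ± 0.29 (limma, adjusted p = 0.000469), and the groups did not overlap. Rescaled, the values were 8.60, 9.64, 5.61 and 5.99 FPKM with saline and 4.00, 5.11, 4.20 and 3.18 FPKM with cyclosporine A. Every treated kidney still lay below the lowest saline kidney, and the change was -0.71 ± 0.19, which did not pass adjustment (limma, unadjusted p = 0.00345, adjusted p = 0.11). Over the alternatives to this fit the adjusted p ran from 0.095 to 0.282.

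With tacrolimus the order was the opposite for Slc17a5. The DMSO/PEG kidneys ran from 31.2 to 40.8 (median 36.5) FPKM and the tacrolimus kidneys from 43.3 to 51.8 (median 47.9) FPKM. All 6 treated kidneys lay above the highest vehicle kidney, with group means of 36.7 ± 3.69 and 47.7 ± 3.08 FPKM (SD, n = 6 each). The change was 0.37 ± 0.07 (limma, adjusted p = 0.0384). The call was narrow, since it was kept in 6 of 17 alternatives with adjusted p-values of 0.0146 to 0.114. It was lost with no filter on low values (0.0598), with a replicate block (0.114), without DMSO/PEG replicate 2 (0.0802), 3 (0.0793), 4 (0.0658) or 6 (0.0848) and without tacrolimus replicate 1 (0.0809), 2 (0.108), 3 (0.0981), 5 (0.0729) or 6 (0.0762), all limma adjusted p-values. Over the 12 fits that each left out 1 library the log2 change was 0.33 to 0.40.

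**Figure D3:**
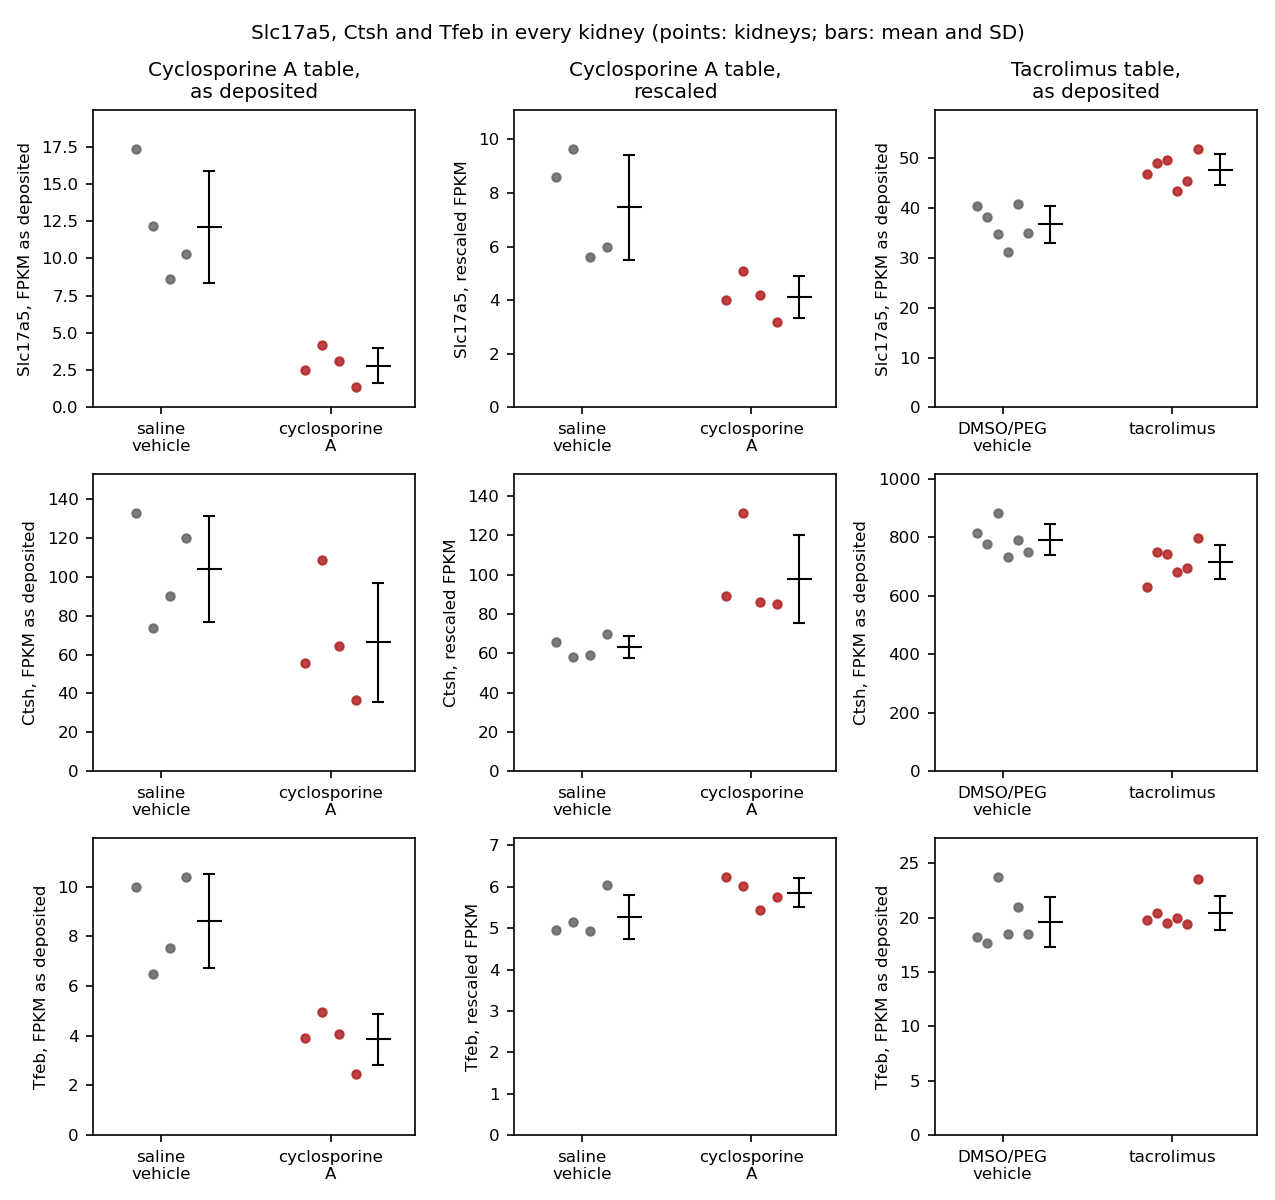
FPKM of Slc17a5, Ctsh and Tfeb (rows) in every kidney, on the deposited and rescaled scales of the cyclosporine A table and in the tacrolimus table (columns); points are kidneys, and the bars show mean and SD. Slc17a5 is lower in all 4 cyclosporine A kidneys on both scales and higher in all 6 tacrolimus kidneys, Ctsh separates only in the rescaled panel, and the Tfeb groups overlap in the rescaled and tacrolimus panels.

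Mcoln1, the lysosomal calcium channel, had the next smallest p among membrane proteins with cyclosporine A. Its rescaled values were 17.8, 16.6, 13.2 and 13.7 FPKM with saline and 10.3, 15.8, 13.1 and 5.55 FPKM with cyclosporine A. The low value of 5.55 belongs to the fourth treated library, the one with the fewest nuclear fragments, and the groups overlapped (-0.49 ± 0.26, limma adjusted p = 0.387). Without that library the change was -0.22, and without any other single library -0.42 to -0.67. With tacrolimus Mcoln1 ran from 52.9 to 74.7 (median 57.6) FPKM, against 52.0 to 63.7 (median 56.7) FPKM with DMSO/PEG (0.08 ± 0.09, limma adjusted p = 0.878).

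Lamp1 and Lamp2, the heavily glycosylated proteins that line the lysosomal membrane, overlapped between the groups on the rescaled scale and with tacrolimus. As deposited, both were lower in every cyclosporine A kidney than in any saline kidney, Lamp1 at 21.9 to 71.0 against 106 to 203 FPKM and Lamp2 at 13.4 to 35.4 against 51.9 to 87.1 FPKM. Lamp1 measured 101, 90.2, 69.5 and 73.0 rescaled FPKM with saline and 72.6, 70.4, 95.1 and 51.1 with cyclosporine A, and ran from 258 to 333 (median 282) FPKM with DMSO/PEG and from 259.5 to 332 (median 284) with tacrolimus. Lamp2 measured 43.2, 41.0, 42.2 and 46.2 rescaled FPKM with saline and 34.0, 42.9, 45.2 and 31.3 with cyclosporine A. In the tacrolimus table Lamp2 ran from 159.5 to 184 (median 169) FPKM with vehicle and from 148 to 186 (median 163) FPKM with drug. Its saline kidneys lay close together (43.1 ± 2.21, SD, n = 4), and 2 of the treated kidneys lay below all of them.

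Cd63, a tetraspanin of late endosomes and lysosomes, was the most abundant of the membrane proteins in both tables. Its rescaled values were 179, 162, 164 and 188 FPKM with saline and 145, 186, 192 and 111 FPKM with cyclosporine A, and it ran from 584 to 688 (median 615) FPKM with DMSO/PEG and from 534 to 766 (median 663) FPKM with tacrolimus. The spread was wider with each drug than with its vehicle and the means were close: 173 ± 12.1 and 158 ± 37.8 for cyclosporine A and 623 ± 41.3 and 657 ± 76.4 for tacrolimus.

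Scarb2, the receptor that carries glucocerebrosidase to lysosomes, measured 2.79, 3.15, 1.86 and 2.41 rescaled FPKM with saline and 2.10, 1.30, 2.86 and 4.02 with cyclosporine A. With tacrolimus it ran from 15.1 to 30.4 (median 22.1) FPKM, against 14.7 to 27.7 (median 19.8) FPKM with vehicle; kidneys of 1 group thus differed more than the group means did. Npc1, which passes cholesterol out of lysosomes, was the least abundant of the membrane proteins, at 0.561, 0.519, 0.404 and 0.540 rescaled FPKM with saline, 0.508, 0.390, 0.739 and 0.599 with cyclosporine A, 2.96 to 3.66 (median 3.26) FPKM with DMSO/PEG and 3.00 to 4.00 (median 3.46) with tacrolimus. On the deposited scale, where 80.9% of all genes were called lower, all 7 membrane proteins were, from -0.42 for Npc1 to -1.80 for Slc17a5, with a median of -1.49. The log2(FPKM + 1) scale compresses changes at levels as low as those of Npc1, whose deposited means were 0.833 and 0.362 FPKM.

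Of the 11 proteases, 5 had a change above 0 and 6 below on the rescaled scale, with none called. Ctsh (chr8:97439161-97458287, plus strand) encodes cathepsin H, a cysteine protease with aminopeptidase activity. Its deposited values were 133, 73.6, 90.1 and 119.9 FPKM with saline and 55.9, 109, 64.2 and 36.5 FPKM with cyclosporine A, overlapping groups (-0.71 ± 0.34, limma adjusted p = 0.0595). The rescaled values were 65.9, 58.2, 58.9 and 69.8 FPKM with saline and 89.2, 132, 86.0 and 85.2 FPKM with cyclosporine A. Every treated kidney lay above the highest saline kidney on that scale, with means of 63.2 ± 5.61 and 98.0 ± 22.4 FPKM (SD, n = 4 each). The change of 0.60 ± 0.15 did not pass adjustment (limma, unadjusted p = 0.00238, adjusted p = 0.0954, range over alternatives 0.0472 to 0.213). The second treated kidney, at 132 FPKM, stood apart from the other 3, and without it the change was 0.46.

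With tacrolimus Ctsh ran from 631 to 797 (median 719.8) FPKM, against 733 to 884 (median 783) FPKM with DMSO/PEG. The groups overlapped and the mean was lower with drug, 716 ± 58.8 against 791 ± 53.4 FPKM (SD, n = 6 each; -0.14 ± 0.07, limma adjusted p = 0.634).

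Ctsl and Ctsb, endopeptidases of the papain family, were among the most abundant lysosomal transcripts. Ctsl measured 319, 297, 274 and 320.1 rescaled FPKM with saline and 207, 307, 358 and 129.8 with cyclosporine A, a wide spread in the treated group that ran through the saline values (-0.37 ± 0.27). With tacrolimus Ctsl ran from 924 to 1472 (median 1226) FPKM, against 997 to 1166 (median 1087) FPKM with vehicle (0.16 ± 0.11). Rodents carry related cathepsin genes near Ctsl, and how reads shared between copies were counted is not given in the sources used here.

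Ctsb measured 72.2, 65.9, 52.3 and 61.5 rescaled FPKM with saline and 53.8, 52.6, 57.1 and 47.8 with cyclosporine A (-0.24 ± 0.12, limma adjusted p = 0.34). The treated kidneys lay in the lower part of the saline range or under it. With tacrolimus it ran from 963 to 1457 (median 1139) FPKM, against 826 to 1191 (median 967) FPKM with vehicle (0.22 ± 0.13, limma adjusted p = 0.709). Ctsa, the carboxypeptidase that also protects neuraminidase and beta-galactosidase in a complex, measured 37.3, 37.3, 26.4 and 30.1 rescaled FPKM with saline and 24.0, 30.5, 43.0 and 28.9 with cyclosporine A. It ran from 611 to 743 (median 645) FPKM with DMSO/PEG and from 612 to 875 (median 671) FPKM with tacrolimus, and both comparisons overlapped.

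Ctsd, the aspartic protease whose promoter is shown above, measured 68.8, 57.0, 50.8 and 58.8 rescaled FPKM with saline and 62.6, 107, 68.4 and 55.4 with cyclosporine A. The second treated kidney was the highest of the 8 and also the highest for Ctsh. With tacrolimus Ctsd ran from 243 to 324 (median 270.3) FPKM, against 235 to 322 (median 272) FPKM with vehicle (0.01 ± 0.09). Ctsc, dipeptidyl peptidase 1, measured 16.8, 15.2, 17.7 and 17.1 rescaled FPKM with saline and 22.8, 20.9, 16.6 and 17.2 with cyclosporine A, and ran from 113 to 123 (median 118) FPKM with DMSO/PEG and from 101 to 120.5 (median 109) FPKM with tacrolimus. Its tacrolimus change of -0.13 ± 0.05 had an unadjusted p of 0.0254 (limma, adjusted p = 0.459).

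Tpp1, tripeptidyl peptidase 1, measured 13.2, 13.5, 7.76 and 12.2 rescaled FPKM with saline and 8.51, 10.1, 10.5 and 9.75 with cyclosporine A, and averaged 94.5 ± 3.64 FPKM with DMSO/PEG and 95.6 ± 10.4 FPKM with tacrolimus (SD, n = 6 each). Ctsf measured 4.22, 4.09, 4.00 and 4.16 rescaled FPKM with saline and 4.50, 1.75, 4.21 and 2.81 with cyclosporine A. Its saline kidneys were nearly equal, while the treated kidneys split into a pair near those values and a lower pair. In the tacrolimus table Ctsf ran from 26.0 to 31.0 (median 27.2) FPKM with vehicle and from 25.2 to 33.1 (median 28.5) FPKM with drug.

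Ctss, Ctsk and Ctsz are cathepsins best known from antigen-presenting cells, osteoclasts and immune cells, and all 3 were low in the cyclosporine A table. Ctss measured 3.95, 3.73, 5.92 and 6.23 rescaled FPKM with saline and 4.66, 3.11, 1.24 and 10.0 with cyclosporine A, and Ctsk 1.17, 0.580, 1.25 and 1.79 with saline and 0.777, 0.879, 1.11 and 3.48 with cyclosporine A. The fourth treated kidney was the highest of its group for both. Ctsz measured 2.62, 2.65, 3.60 and 3.52 rescaled FPKM with saline and 2.75, 5.48, 3.22 and 5.27 with cyclosporine A, again with overlap. With tacrolimus Ctss ran from 26.5 to 43.4 (median 29.2) FPKM against 25.5 to 51.2 (median 28.0) FPKM with vehicle, Ctsk from 7.89 to 10.3 (median 8.88) against 6.96 to 11.2 (median 8.73), and Ctsz from 9.03 to 14.7 (median 12.6) against 9.92 to 16.8 (median 12.4). On the deposited scale 10 of the 11 proteases were called lower, against 80.9% of all genes, from -0.64 for Ctsk to -1.70 for Ctsl. The Ctsk change is compressed by the log2(FPKM + 1) scale, since its deposited means were low (2.02 and 0.883 FPKM). Of the deposited-scale calls, that of Ctsk was lost with no filter on low values (adjusted p = 0.0858), with voom (0.0576) and without saline replicate 1 (0.0591), saline replicate 4 (0.0872) or cyclosporine A replicate 1 (0.0704). Ctsz lost its call without saline replicate 4 (limma adjusted p = 0.0649) or cyclosporine A replicate 1 (0.0773), and Ctsd without saline replicate 1 (0.0609).

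The 11 genes of glycan breakdown, glycosidases and a sulfamidase, were all called lower on the deposited scale, against 80.9% of all genes, from -0.61 for Sgsh to -1.64 for Neu1. The log2(FPKM + 1) scale compresses changes of levels under 1, as for Sgsh, whose means were 0.918 and 0.287 FPKM, against 43.5 and 13.5 FPKM for Neu1. Rescaled, their median change was -0.23 with 3 above 0 and 8 below, and none was called. Gusb, beta-glucuronidase, had the smallest p. It measured 1.78, 1.55, 1.71 and 1.63 FPKM with saline and 0.427, 0.836, 1.28 and 0.901 FPKM with cyclosporine A on that scale, and all treated kidneys lay below the saline kidneys (-0.54 ± 0.15, limma unadjusted p = 0.00515, adjusted p = 0.127). These are low levels, with 20 to 302 fragments behind each value. With tacrolimus Gusb ran from 6.85 to 10.4 (median 7.44) FPKM, against 6.77 to 8.13 (median 7.21) FPKM with vehicle, and the tacrolimus maximum came from the sixth kidney.

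Gaa, the acid alpha-glucosidase that degrades glycogen, measured 3.54, 3.45, 3.65 and 3.81 rescaled FPKM with saline and 1.87, 2.47, 3.37 and 2.61 with cyclosporine A. The saline kidneys were close together and every treated kidney lay below them (-0.38 ± 0.15, limma unadjusted p = 0.026, adjusted p = 0.238). With tacrolimus Gaa ran from 37.5 to 43.9 (median 41.5) FPKM, against 37.1 to 45.8 (median 41.2) FPKM with DMSO/PEG (-0.02 ± 0.06). Gaa lies 56.8 kb from Sgsh on chromosome 10, on the opposite strand. Sgsh was near the detection limit of the cyclosporine A table, with no fragment in 2 treated kidneys: 0.518, 0.760, 0.718 and 0.332 rescaled FPKM with saline and 0.626, 0, 1.01 and 0 with cyclosporine A. In the tacrolimus table it had 116 to 215 fragments and values from 3.90 to 6.49 (median 4.48) FPKM with vehicle and from 4.18 to 6.75 (median 5.22) FPKM with drug.

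Neu1 is the sialidase that releases the sialic acid which the Slc17a5 protein exports. It measured 32.7, 28.8, 20.7 and 23.5 rescaled FPKM with saline and 20.6, 18.6, 24.7 and 16.8 with cyclosporine A, with overlap (-0.36 ± 0.16, limma unadjusted p = 0.0495, adjusted p = 0.308). With tacrolimus Neu1 ran from 50.3 to 66.4 (median 51.7) FPKM, against 36.9 to 65.0 (median 49.4) FPKM with vehicle (0.17 ± 0.12, limma adjusted p = 0.79). The Neu1 change was below 0 with cyclosporine A on the rescaled scale and above 0 with tacrolimus, without passing either test. This pair of signs was found in 16 of the 36 genes, and its share over all genes was not counted. The length behind the deposited Neu1 values was 748 bases in the cyclosporine A table, where 2383 are listed, so its level there cannot be set beside that of the tacrolimus table.

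Manba, lysosomal beta-mannosidase, was the gene whose tacrolimus kidneys all lay below the vehicle kidneys, from 26.1 to 28.8 (median 28.1) FPKM against 29.3 to 33.5 (median 29.7) FPKM. The step was small next to the level (-0.13 ± 0.04, limma unadjusted p = 0.0109, adjusted p = 0.368). In the cyclosporine A table Manba measured 6.34, 5.64, 4.80 and 5.58 rescaled FPKM with saline and 5.03, 4.17, 4.24 and 4.84 with drug, with overlap. Man2b1, the alpha-mannosidase, measured 7.84, 9.42, 7.91 and 10.4 rescaled FPKM with saline and 7.29, 5.83, 9.67 and 8.88 with cyclosporine A, and ran from 69.5 to 79.2 (median 74.9) FPKM with DMSO/PEG and from 71.6 to 82.6 (median 76.5) FPKM with tacrolimus.

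Hexa, the alpha subunit of beta-hexosaminidase, measured 28.2, 26.6, 20.4 and 23.6 rescaled FPKM with saline and 26.4, 23.0, 26.2 and 13.4 with cyclosporine A, and ran from 154 to 200.2 (median 163) FPKM with DMSO/PEG and from 153 to 193 (median 169) FPKM with tacrolimus. Glb1, beta-galactosidase, measured 8.79, 9.06, 9.15 and 9.59 rescaled FPKM with saline and 10.9, 9.68, 10.5 and 7.20 with cyclosporine A, and ran from 97.8 to 119 (median 104) and from 92.7 to 125 (median 103) FPKM in the tacrolimus table. In both genes the fourth cyclosporine A kidney was the lowest of its table; the other 3 treated kidneys lay just above the saline range for Glb1 and inside it for Hexa. Gla, the alpha-galactosidase deficient in Fabry disease, measured 6.53, 9.02, 5.46 and 7.41 rescaled FPKM with saline and 9.26, 6.09, 3.15 and 5.42 with cyclosporine A. Its tacrolimus table values ran from 23.3 to 26.1 (median 24.1) FPKM with vehicle and from 21.3 to 25.4 (median 23.3) FPKM with drug.

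Naglu and Idua, which act with Sgsh in the breakdown of heparan sulfate, had means above those of saline on the rescaled scale. Naglu measured 3.28, 1.63, 2.44 and 2.91 FPKM with saline and 2.11, 4.56, 3.98 and 1.74 FPKM with cyclosporine A, and Idua 5.77, 5.46, 3.39 and 5.16 FPKM with saline and 5.83, 4.71, 5.97 and 7.96 FPKM with cyclosporine A. Both overlapped between the groups. With tacrolimus Naglu ran from 9.78 to 27.4 (median 22.1) FPKM against 18.9 to 24.2 (median 21.4) FPKM with vehicle, the lowest value being a single kidney, and Idua from 14.0 to 18.1 (median 17.7) against 11.9 to 17.5 (median 15.6) (0.19 ± 0.10, limma adjusted p = 0.64). The deposited-scale call of Naglu was lost with no filter on low values (limma adjusted p = 0.121), without saline replicate 1 (limma adjusted p = 0.124) or 4 (0.0774) and without cyclosporine A replicate 1 (0.0895) or 4 (0.131).

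Lipid hydrolases and cofactors were called lower in all 6 cases on the deposited scale, against 80.9% of all genes, from -1.11 for Npc2 to -1.65 for Smpd1, and in none on the rescaled scale (median -0.12). Smpd1, acid sphingomyelinase, measured 10.6, 10.0, 9.53 and 10.1 rescaled FPKM with saline and 5.58, 7.10, 7.08 and 8.45 with cyclosporine A. The saline kidneys were tightly grouped and all treated kidneys lay below them (-0.47 ± 0.12, limma unadjusted p = 0.00379, adjusted p = 0.115). With tacrolimus Smpd1 ran from 52.2 to 66.1 (median 54.1) FPKM, against 51.8 to 65.6 (median 55.5) FPKM with DMSO/PEG (-0.02 ± 0.07). Smpd1 lies 200.5 kb from Tpp1 on chromosome 1, and the Tpp1 groups overlapped on that scale.

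Psap, the precursor of the saposins that present sphingolipids to their hydrolases, measured 65.5, 57.7, 56.9 and 65.6 rescaled FPKM with saline and 44.8, 48.7, 57.7 and 54.2 with cyclosporine A (-0.26 ± 0.11, limma unadjusted p = 0.0403, adjusted p = 0.28). A single treated kidney, at 57.7 FPKM, reached the saline values. With tacrolimus it ran from 367 to 455 (median 383) FPKM, against 379.5 to 458 (median 408) FPKM with vehicle. Grn, the precursor of the lysosomal granulins, measured 16.8, 13.0, 12.8 and 16.3 rescaled FPKM with saline and 13.3, 10.3, 12.1 and 13.8 with cyclosporine A, and ran from 87.0 to 109.8 (median 93.2) FPKM with DMSO/PEG and from 91.6 to 131 (median 97.4) FPKM with tacrolimus.

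Lipa, the acid lipase that frees cholesterol from its esters, was nearly level across the cyclosporine A table, at 7.26, 8.10, 7.95 and 7.04 rescaled FPKM with saline and 7.45, 6.90, 8.28 and 7.39 with drug. In the tacrolimus table it ran from 33.5 to 38.9 (median 37.0) FPKM with vehicle and from 33.2 to 43.2 (median 38.6) FPKM with drug. Npc2, the soluble partner of Npc1, measured 19.9, 23.8, 25.1 and 28.0 rescaled FPKM with saline and 27.0, 23.2, 24.1 and 36.6 with cyclosporine A, and ran from 77.2 to 107 (median 82.1) and from 76.9 to 98.3 (median 86.5) FPKM in the tacrolimus table. Asah1, acid ceramidase, measured 12.1, 13.6, 13.3 and 13.9 rescaled FPKM with saline and 13.6, 11.6, 14.6 and 15.9 with cyclosporine A. With tacrolimus it ran from 34.2 to 39.1 (median 36.0) FPKM, against 36.9 to 40.9 (median 39.0) FPKM with DMSO/PEG (-0.09 ± 0.05, limma adjusted p = 0.622). None of these 3 separated the groups in either table on that scale.

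Tfeb (chr9:15207822-15214596, minus strand) measured 9.99, 6.50, 7.53 and 10.4 FPKM with saline and 3.91, 4.96, 4.07 and 2.46 FPKM with cyclosporine A on the deposited scale, where it was called lower (-0.99 ± 0.26, limma adjusted p = 0.00275), close to the median gene at -0.89. Rescaled, it measured 4.96, 5.14, 4.92 and 6.05 FPKM with saline and 6.25, 6.01, 5.44 and 5.75 FPKM with cyclosporine A. The groups overlapped, and the sign turned to 0.13 ± 0.11 (limma adjusted p = 0.605). With tacrolimus Tfeb ran from 19.4 to 23.5 (median 19.9) FPKM, against 17.7 to 23.8 (median 18.5) FPKM with DMSO/PEG (0.06 ± 0.07, limma adjusted p = 0.9). The rescaled 95% interval of the cyclosporine A change ran from -0.11 to 0.38 and that of the tacrolimus change from -0.10 to 0.22. The 3 genes with the palindrome in their promoter differed in sign on the rescaled scale: Ctsd was at 0.28, Lamp1 at -0.22 and Mcoln1 at -0.49, none called.

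**Figure D4:**
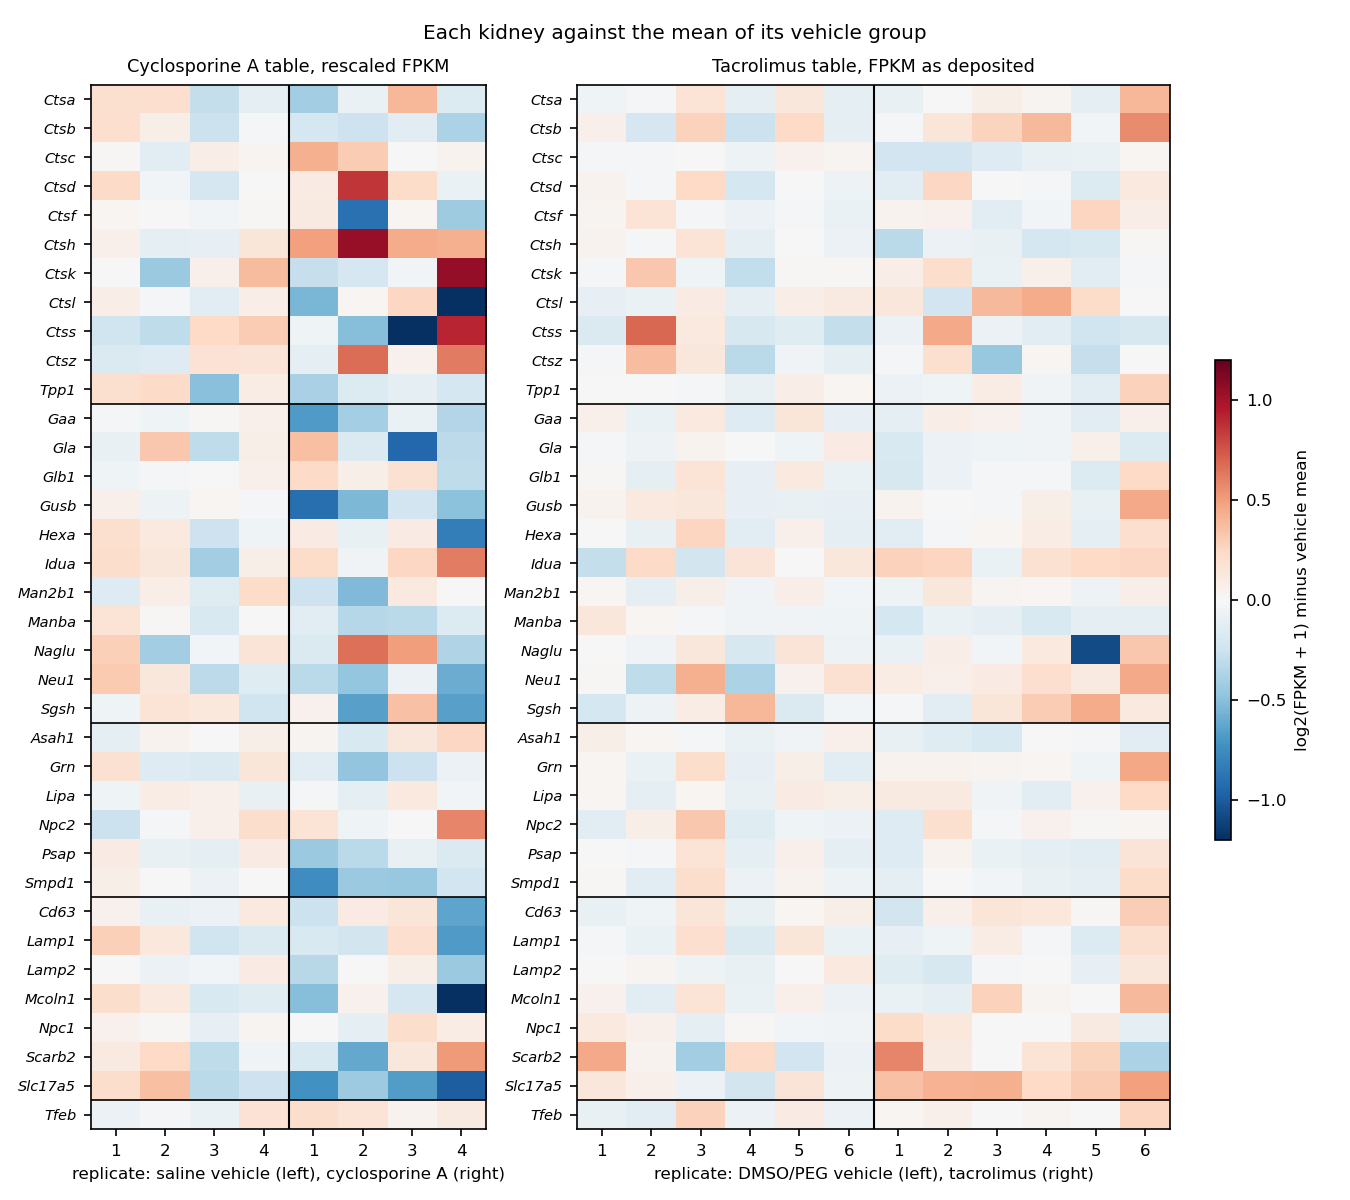
Each kidney against the mean of its vehicle group, as log2(FPKM + 1) minus that mean, with rescaled FPKM in the cyclosporine A table and deposited FPKM in the tacrolimus table, for the 36 genes in rows ordered by role and the kidneys in columns; red is above and blue below the vehicle mean, and the deepest colours stand for values at or beyond the ends of the scale. Slc17a5 is blue in all 4 cyclosporine A kidneys and red in all 6 tacrolimus kidneys, Ctsh is red in all 4 cyclosporine A kidneys on the rescaled scale drawn (its change was below 0 as deposited), and the sixth tacrolimus kidney has the highest value of its group for 20 of the 36 genes.

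The share of nuclear fragments that came from the 36 genes was 0.79% ± 0.0547 (SD, n = 4) with saline and 0.78% ± 0.099 (SD, n = 4) with cyclosporine A. It was 1.52% ± 0.0726 (SD, n = 6) with DMSO/PEG and 1.58% ± 0.0843 (SD, n = 6) with tacrolimus. The share thus differed between drug and vehicle by less than 1 SD in each table. Of all fragments, mitochondrial ones included, the 36 genes took 0.32% ± 0.0802 (SD, n = 4) with saline and 0.123% ± 0.0495 (SD, n = 4) with cyclosporine A. By the mean over all kidneys of a table, both groups pooled, Ctsl was the most abundant in each. It was followed by Cd63 in the cyclosporine A table (rescaled) and by Ctsb in the tacrolimus table, and Npc1 and Sgsh were the last 2 in both. These places hold within each table. Levels are not compared between the tables, since the lengths used differ for some genes (for Lamp1, 1991 and 4019 bases). Ctsl and Ctsb, at 1155 and 1077 FPKM over the 12 kidneys of the tacrolimus table, overlapped between kidneys.

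Kidneys of 1 group varied more in the cyclosporine A table. The coefficient of variation of rescaled FPKM had a median over the 36 genes of 13.8% with saline and 23.4% with cyclosporine A, against 8.67% with DMSO/PEG and 9.58% with tacrolimus. Within each group, the most variable gene was Ctsk with saline (41.5%), Sgsh with cyclosporine A (122%), Ctss with DMSO/PEG (29.9%) and Naglu with tacrolimus (28.5%). The sixth tacrolimus kidney, which also had the largest mitochondrial share of its table (15.9%), gave the highest value of its group for 20 of the 36 genes. Among the DMSO/PEG kidneys, the third was highest for 16 genes and the fourth lowest for 17. Such counts were not made over all genes. The part of the mitochondrial share in the levels was not tested.

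The change with cyclosporine A (rescaled) minus the change with tacrolimus was called for 2 of the 36 genes, 1 higher (Ctsh) and 1 lower (Slc17a5), against 0.851% of 13392 genes higher and 0.762% lower (1.61% in either direction). Drug, vehicle and table changed together here and cannot be told apart in this difference. For Slc17a5 it was -1.08 ± 0.20 (adjusted p = 0.0234, from the limma changes), with all 4 treated kidneys below saline and all 6 above DMSO/PEG. The call was kept in 20 of 24 alternatives and lost without saline replicate 1 (0.0923), 2 (0.0624) or 4 (0.0658) or cyclosporine A replicate 1 (0.0613). For Ctsh the difference was 0.75 ± 0.17 (adjusted p = 0.0401), kept in 16 of 24. It turned to -0.57 on the deposited scale and lost the call with no filter on low values (0.0664), with a replicate block (0.0694) and without saline replicate 1 (0.109), 2 (0.112), 3 (0.103) or 4 (0.0852) or cyclosporine A replicate 1 (0.0746).

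On the rescaled scale, differences of the other genes did not pass adjustment with all libraries. With cyclosporine A values as deposited, 33 of the 36 were called lower, and 11 turned from above to below 0, among them Ctsc (-0.94) and Tfeb (-1.05). Ctsb (-0.46), Ctsc (0.32), Gaa (-0.36), Neu1 (-0.53), Gusb (-0.61) and Smpd1 (-0.45) had an unadjusted p under 0.05, so that with Ctsh and Slc17a5 they made 8 of 36 (22.2%), against 16% of all genes. Gusb came closest, with an adjusted p of 0.086 by the limma changes, and was called without cyclosporine A replicate 3 (-0.72, adjusted p = 0.0454). For Mcoln1 the difference was -0.58 ± 0.27 (adjusted p = 0.33; -0.30 without cyclosporine A replicate 4), for Grn -0.32 ± 0.16 (adjusted p = 0.331) and for Tfeb 0.07 ± 0.13 (adjusted p = 0.842). The median difference was -0.19 over the 36 genes and 0.00 over all genes (quartiles -0.18 and 0.18).

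Other lysosomal genes were read from lists of further soluble hydrolases (27 tested), further membrane proteins (25), v-ATPase proton pump subunits (22), mannose 6-phosphate sorting machinery (20), TFEB relatives and mTORC1 control (21) and autophagy genes (20). With cyclosporine A on the deposited scale 25, 25, 21, 20, 21 and 20 of them, in that order, were called lower and none higher, against 80.9% of all genes called lower. On the rescaled scale and with tacrolimus 0 of these genes were called in either direction, by limma or by voom on the recovered fragments. Unadjusted p-values under 0.05 numbered 5, 6, 5, 1, 4 and 0 on the rescaled scale and 2, 1, 2, 1, 0 and 1 with tacrolimus, against 16.2% and 8.58% of all genes. Rescaled list medians ran from -0.15 to 0.03 and those with tacrolimus from -0.02 to 0.04.

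Genes with the smallest p of each list with cyclosporine A on the rescaled scale were the thioesterase Ppt2 (-0.44, adjusted p = 0.163), the membrane transporter Mfsd1 (-0.72, 0.133), the proton pump subunit Atp6v0e2 (-0.45, 0.0884), Vps18 of the HOPS tethering complex (-0.33, 0.22), the calcineurin catalytic subunit Ppp3ca (-0.36, 0.241) and the autophagy receptor Optn (0.21, 0.35), all by limma. With tacrolimus they were Ppt2 (0.15, adjusted p = 0.458), Sidt2 (0.16, 0.353), Atp6v1g3 (-0.27, 0.409), Gga3 (0.15, 0.542), Lamtor5 (0.11, 0.79) and Ulk1 (0.14, 0.435). The difference between the drugs was called for Atp6v0e2 alone among these lists, against 0.762% of all genes called lower, at -0.53 ± 0.13 (adjusted p = 0.0476). Ppt2 followed at -0.59 ± 0.15 (adjusted p = 0.0649).

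Markers of the kidney's cell types were read beside these results, since fewer cells of a type and less RNA per cell cannot be told apart in bulk tissue. The 10 proximal tubule markers were all detected, and their summed rescaled FPKM ran from 1085 to 1427 with saline and from 559 to 1125 with cyclosporine A. On the rescaled scale 1 of the 10 was called, the glucose transporter Slc5a2 (0.93, limma adjusted p = 0.0385, higher), 7 were below 0, and the median was -0.32, lower than that of the lysosomal genes. An unadjusted p under 0.05 was found for 6 of the 10, against 16.2% of all genes, and voom called Slc5a2 higher and the endocytic receptor Cubn lower. With tacrolimus their sum ran from 5050 to 5728 against 5013 to 5545, with 0 called. Macrophage markers (9 of 10 tested) summed to 49.6 to 110 with saline and 53.1 to 158 with cyclosporine A, median 0.03. With tacrolimus the 10 markers summed to 331 to 451 against 363 to 830, all 10 below 0 and 0 called, median -0.22. The B cell marker Ms4a1 was at 0 in every kidney of the cyclosporine A table. What part these cell types had in the lysosomal values was not tested.

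Of the other marker lists, those of the thick ascending limb, distal convoluted tubule and urothelium each had 1 gene called with cyclosporine A on the rescaled scale, against 0.609% of all genes in either direction: Umod (-1.36, limma adjusted p = 0.0491), Calb1 (-1.85, 0.0252) and Upk1a (1.51, 0.0197). Voom called these 3 and also Slc12a1 of the thick ascending limb, lower. All 4 urothelium markers tested were above 0 with an unadjusted p under 0.05 (median 0.98). With tacrolimus all 5 tested distal convoluted tubule markers were called lower, against 0.284% of all genes (median -1.24; Pvalb was at 0), beside the higher Slc17a5. The adipocyte list had 1 gene called lower, Ucp1 (-3.33, limma adjusted p = 0.000844), which voom did not call; all 6 of its genes were below 0 (median -0.86), 4 of them with an unadjusted p under 0.05. In the difference between the drugs, where 1.61% of all genes were called, 4 of 5 distal convoluted tubule markers were called higher (Calb1, Trpm6, Klhl3 and Slc8a1; median over the 5, 1.51), as were Slc5a2 and Upk1a, and Slc12a1 and the endothelial Plvap (-2.12) were called lower. The part of these cell types in the Slc17a5 and Ctsh differences was not tested. The lists for T and B cells, fibroblasts and stroma, intercalated cells, principal cells, podocytes and endothelium had 0 genes called on the rescaled scale or with tacrolimus by limma or voom; an unadjusted p under 0.05 was found for 0 of 1, 0 of 6, 0 of 8, 3 of 6, 2 of 6 and 1 of 6 genes tested with cyclosporine A (16.2% of all genes) and for 2 of 8, 2 of 7, 1 of 8, 0 of 6, 1 of 6 and 0 of 6 with tacrolimus (8.58%). With 1 of 9 T and B cell markers tested, the cyclosporine A table says little of those cells. Rescaled changes there were above 0 for 6 of 6 principal cell, 7 of 8 intercalated cell and 5 of 6 podocyte markers. They were above 0 for 4 of 6 fibroblast and stroma markers and 1 of 6 endothelium markers.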

How the data were processed

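Bulk RNA sequencing of 20 samples of whole rat kidney was deposited as 2 tables of genes by samples, 1 for cyclosporine A and 1 for tacrolimus, each with its own vehicle. The deposited values are FPKM, which was judged from the values, as the file headers name no unit. Per the labels' protocols, libraries were made from total RNA with an NEBNext kit. The submitters' processing notes name HISAT2 and rn6, without a role; the counting program, strand setting and annotation release are not given in the sources used here. Column names matched the sample titles, and 0 columns of values were left out.

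The fragments behind each FPKM value were recovered as whole numbers (tolerance 0.01 fragments). With the listed gene length this held for 100.0% of the tacrolimus values and 74.58% of the cyclosporine A values. For cyclosporine A, 4441 of 18892 detected genes, 7 lysosomal genes among them, needed a length shorter than the listed one, which was then used. Rescaled FPKM divides the recovered fragments by length and by median-of-ratios size factors. This rescaling was first chosen after the mitochondrial shares had been seen. Libraries of a group differed by more than counting noise (chi-square per degree of freedom 11.8 to 34.5 and 16.2 to 55.7), and none was counted as a copy.

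Genes were tested with limma 3.58.1 (R 4.3.3) on log2(FPKM + 1), with a term for group, trended empirical Bayes variances and p-values adjusted by Benjamini-Hochberg over all genes tested. A gene was tested with at least 10 fragments, at the median library size, in as many libraries as the smaller group and at least 15 in total. The difference between the drugs is the difference of the limma changes with Satterthwaite degrees of freedom. Fold changes on this scale understate changes of low genes. On simulated data, some genes were changed by 1 on the log2 scale. The tests found 97.0% of them for cyclosporine A (13455 genes), 100.0% for tacrolimus (15493 genes) and 83.3% for the difference (13392 genes). The changed genes were drawn from well-covered ones, and all libraries were given the same dispersion. These rates therefore do not carry over to genes with few fragments or to the cyclosporine A group, whose kidneys varied more. Alternatives were a pseudocount of 0.1, no filter, a replicate block, voom, scaling to nuclear fragments, the other scale and leaving out each library.

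The 36 genes, the 6 further gene lists and the 12 marker lists were chosen with earlier results of these data known. Values are given for genes called in any comparison (in every kidney on the rescaled scale), Tfeb, the 2 smallest p-values of each role and the 3 highest levels; from each further list, the called genes (at most 4) or the smallest p, except that for the deposited scale, where nearly all were called, and for markers these are given as counts. Promoter sequences are RefSeq's (GRCr8), and proteins were not used here.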

Additional observations from a re-analysis of the deposited data

Results flagged for a closer look

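The change in the cyclosporine A table (rescaled) differed from that in the tacrolimus table for Ctsh (0.75) and Slc17a5 (-1.08), by the test of the difference between the changes. Drug, vehicle and table cannot be told apart in it, and for Ctsh it was -0.57 on the deposited scale.

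In 12 of 216 groups of values (36 genes, each group on each scale; 5.56%, 11 genes) 1 kidney lay far from the others of its group; chance alone flags about 5%. The second cyclosporine A kidney was high for Ctsh on the rescaled scale, at 131.5 FPKM against 85.15 to 89.22 in the others. The fourth was high for Ctsk, at 3.485 against 0.7773 to 1.107.

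For Ctss, a cathepsin of antigen-presenting cells, the second DMSO/PEG kidney stood at 51.19 FPKM against 25.54 to 34.09. The second tacrolimus kidney stood at 43.4 against 26.54 to 29.92. Idua was low in the third tacrolimus kidney, at 13.96 against 16.94 to 18.08.

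The sixth tacrolimus kidney was high for 7 genes: Ctsa (875.1 FPKM against 612.4 to 696.3), Glb1 (125.2 against 92.71 to 104.7), Grn (131.3 against 91.61 to 97.65), Neu1 (66.37 against 50.34 to 55.5), Gusb (10.41 against 6.846 to 7.729), Smpd1 (66.11 against 52.2 to 56.28) and Tfeb (23.53 against 19.39 to 20.45). These include 3 glycosidases, the carboxypeptidase that protects 2 of them, and Tfeb itself. The 7 values come from 1 library and are not independent of each other. That library also had the fewest genes detected of its table (17880). How many of all genes were high in it was not counted, so the values cannot be read as a trait of the lysosomal genes.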

How the results depend on the processing

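Which scale was used decided the cyclosporine A result. Moving from deposited to rescaled FPKM took the genes called higher from 26 to 44, the genes called lower from 10885 to 38 and the lysosomal genes called lower from 35 to 0. It turned the sign of 12 lysosomal genes: Ctsh (0.60, not called on either scale), Ctsc (0.19), Ctsd (0.28), Ctsk (0.14), Ctsz (0.31), Glb1 (0.04), Npc1 (0.05), Npc2 (0.18), Naglu (0.16), Idua (0.26), Asah1 (0.06) and Tfeb (0.13). With deposited values the difference between the drugs had 41 genes higher and 10027 lower, with 0 and 33 lysosomal genes, and 11 lysosomal genes turned from above to below 0, among them Ctsh (-0.57) and Tfeb (-1.05). On the deposited scale the genes called higher with cyclosporine A were 13 with a pseudocount of 0.1 and 12 with voom. On the rescaled scale they were 1 with no filter, 137 with voom (1 lysosomal gene, Ctsh) and 75 with scaling to nuclear fragments, and the genes called lower 0 with no filter and 132 with voom. With tacrolimus the genes called higher were 8 with scaling to nuclear fragments, and with no filter Slc17a5 was lost (0 lysosomal genes). With no filter the difference had 71 genes higher, 64 lower and 0 lysosomal genes higher. Precision is lowest in the cyclosporine A group, with 2905839 to 6549282 nuclear fragments per library; the cause of these moves was not tested.

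The labels do not say whether kidneys of the same number were paired. Same-numbered deviations correlated over 0.1 in 1 of 4 cyclosporine A pairs (range -0.15 to 0.21) and 2 of 6 tacrolimus pairs (-0.15 to 0.18). In 1 of 4 and 2 of 6 pairs, both kidneys correlated best with their own number. So few pairs cannot decide whether the numbers carry a pairing. With a replicate block the genes called were 4 higher and 2 lower for cyclosporine A (rescaled) and 1 higher for tacrolimus, with 0 lysosomal genes higher there and in the difference; Slc17a5 with tacrolimus had an adjusted p of 0.114 (limma).

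Leaving out each library in turn gave 20 to 42 genes higher, 9864 to 11138 lower and 32 to 36 lysosomal genes lower for cyclosporine A as deposited. Rescaled, it gave 1 to 83 higher and 0 to 58 lower. For tacrolimus it gave 0 to 3 higher, 33 to 49 lower and 0 to 1 lysosomal genes higher. For the difference it gave 17 to 138 higher and 10 to 151 lower, with 0 to 1 lysosomal genes higher and 0 to 2 lower.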
